A study of Arabidopsis thaliana with 2 samples.

Results

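The genes described here are 10 members of the ketoacyl-CoA synthase (KCS) family of Arabidopsis thaliana other than CER6, taken from the 25665 loci named on the array. They were picked by locus name, in a set drawn up with earlier results of these data known, although no measured value enters the rule: KCS1 (AT1G01120), KCS2 (AT1G04220), KCS3 (AT1G07720), KCS4 (AT1G19440), KCS5 (AT1G25450), KCS9 (AT2G16280), KCS10 (AT2G26250), KCS12 (AT2G28630), KCS16 (AT4G34250) and KCS20 (AT5G43760). Each of them had 1 probe. The other 11 KCS loci on the array, CER6 among them, served for comparison.

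RNA of sgr1 was set against RNA of wild-type Columbia on 2 Agilent 2-colour arrays of 1 slide, with sgr1 in Cy3 on array 1 and in Cy5 on array 2. Both genotypes were sampled as inflorescence stems stripped of lateral organs, in a segment of 1.5 cm that began 0.3 cm below the apex of stems 5 to 8 cm tall. At least 10 plants, grown at 23 °C in constant light, gave each RNA. Both genotypes had 3 days of cold at 4 °C and 10 days on plates. sgr1 carries a lesion in SCARECROW (SCR), a transcription factor of the GRAS family without which the endodermis does not form; the labels do not name the allele, and every cell of the plant carries it.

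Ketoacyl-CoA synthases are the condensing enzymes of the fatty acid elongase of the endoplasmic reticulum. Each joins malonyl-CoA to an acyl-CoA, and the synthase present sets which chain lengths the complex can make, while a ketoacyl-CoA reductase, a hydroxyacyl-CoA dehydratase and an enoyl-CoA reductase complete each round. The very-long-chain products feed the wax of the cuticle, suberin, sphingolipids and, in some seeds, storage oil. In stems the wax is made by the epidermis, and CER6 is the main synthase for its long chains.

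Values for a genotype are log2 normalized signals on each array, and a log2 ratio is sgr1 over wild type on the same array, so a positive ratio means more signal in sgr1. Signals of different probes were not compared with each other, because probes differ in brightness for reasons other than transcript level. Over the 19059 genes tested, the mean log2 ratio of both arrays had a median of 0.0048, and the ratios of the arrays had a Pearson correlation of 0.72 across genes, which are not independent replicates. At an adjusted p under 0.05 limma called 18.9% of the genes tested, with 9.94% up in sgr1 and 8.99% down. In sgr1, 59.2% and 64.4% of spots on arrays 1 and 2 were well above background, against 66.5% and 59.6% in wild type. The higher share was that of the Cy5 channel on both arrays, so it went with the dye and not with the genotype. No spot was saturated. SCR had log2 signals of 10.05 and 9.80 in sgr1, against 10.86 and 10.96 in wild type, and fell 1.98-fold (log2 ratio -0.99 ± 0.245, SD, n = 2 arrays, limma adjusted p = 3.13e-07); whether its probe lies in the part of the gene hit by the lesion is not given here, so this is a level and no test of the lesion.

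Of the 10 KCS genes, 9 gave enough signal to be tested. KCS1, KCS10, KCS5, KCS2 and KCS9 were higher in sgr1, by 1.3- to 1.54-fold, and no member was called lower (limma, adjusted p under 0.05). These 5 of 9 stand beside 9.94% of all genes tested called higher and 8.99% called lower. KCS20, KCS3, KCS12 and KCS4 were not called. At an unadjusted p under 0.05, 6 members were higher and 1 was lower, beside 15.4% and 14.8% of all genes tested. The median log2 ratio of the 9 tested members was 0.38, beside 0.0048 over all genes tested, and it was 0.30 on array 1 and 0.47 on array 2. No member was 2-fold different on both arrays, as 1.53% of all genes were. The 5 calls depended on the processing. The scanner software corrects both background and dyes in its own way, and from its log ratios limma called 0 of the 9, beside 10.2% of all genes. At an unadjusted p under 0.05 it counted 4 of the 9, beside 27.1% of all genes, and the members' median log2 ratio was 0.35. With each array centred on its median only, which leaves dye effects that vary with intensity, limma called 0 of the 9, beside 0.0105% of all genes. At an unadjusted p under 0.05 it counted 0 of them, beside 90 of all 19059 genes, at a median log2 ratio of 0.37. Hardly any gene was called in this setting, so its counts of 0 are not particular to the members. The stem is a mixture of tissues, so more cells of a type and more transcript per cell cannot be told apart in these values.

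**Figure D1:**
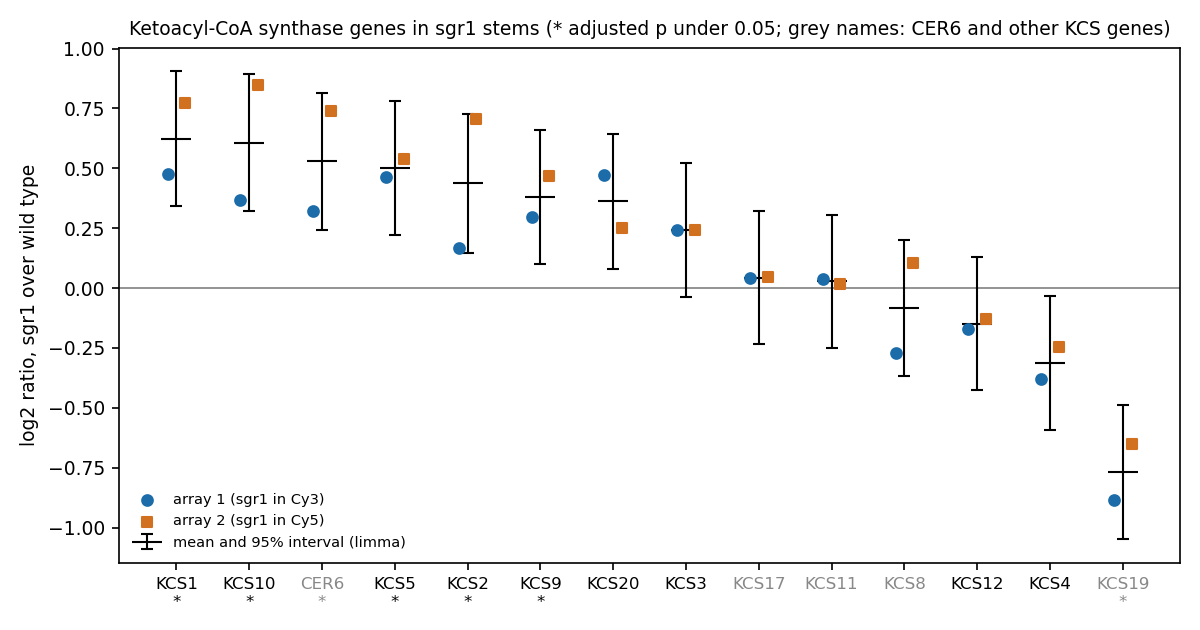
Log2 ratio of sgr1 over wild type (vertical axis) for each tested KCS gene (horizontal axis), with circles for array 1, squares for array 2, and a dash with bars for the mean and its 95% interval from limma. KCS1 is highest at 0.62 and KCS19, shown with a grey name as one of the other KCS genes, is lowest at -0.77; asterisks mark an adjusted p under 0.05.

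KCS1 encodes a synthase of broad chain-length range that takes part in wax synthesis of stems and leaves. Its log2 signals were 14.27 on array 1 and 14.52 on array 2 in sgr1, against 13.80 and 13.75 in wild type. Both sgr1 signals lay above both wild-type signals. The log2 ratios of 0.48 and 0.77 averaged 0.62 ± 0.21 (SD, n = 2 arrays, 95% interval 0.34 to 0.91), a 1.54-fold rise (limma adjusted p = 0.000791). This mean stood at the 96.4th percentile of all genes tested.

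KCS10, also called FIDDLEHEAD, acts in the epidermis, and plants that lack it have shoot organs that fuse on contact. It had log2 signals of 12.45 and 12.70 in sgr1, against 12.08 and 11.86 in wild type. The genotypes did not overlap, but the arrays differed in size of effect, with a log2 ratio of 0.37 for the first and 0.85 for the dye-swapped one. Their mean was 0.61 ± 0.34 (SD, n = 2 arrays, 95% interval 0.32 to 0.89), or 1.52-fold higher in sgr1 (limma adjusted p = 0.00131). Without array 2 the value is the 0.37 of array 1, which has no test.

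KCS5, known as CER60, is the closest relative of CER6 in the family and overlaps with it in wax elongation. Its log2 signals were 12.18 and 12.33 in sgr1, against 11.72 and 11.80 in wild type, with both sgr1 values above both wild-type values. The ratios were close on the arrays, at 0.46 and 0.54. KCS5 thus rose 1.42-fold in sgr1, with a mean log2 ratio of 0.50 ± 0.053 (SD, n = 2 arrays, 95% interval 0.22 to 0.78, limma adjusted p = 0.00673).

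KCS2 and KCS20 are a pair of close paralogs whose functions overlap in the wax of stems and the suberin of roots. KCS2 had log2 signals of 10.54 and 11.22 in sgr1, against 10.37 and 10.52 in wild type. Both sgr1 signals were higher than both wild-type signals, the first by a small margin. The log2 ratio was 0.17 on array 1 and 0.70 on array 2, with a mean of 0.44 ± 0.378 (SD, n = 2 arrays, 95% interval 0.15 to 0.73), and KCS2 was called higher at 1.35-fold (limma adjusted p = 0.0252). The SD of KCS2 was the largest among the tested members, and without array 2 its log2 ratio is 0.17. Its call also failed when the filter on dim probes was left out (limma adjusted p = 0.0594).

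KCS20 had log2 signals of 12.94 and 12.77 in sgr1, against 12.47 and 12.52 in wild type, again with no overlap. Here array 1 gave the larger log2 ratio, 0.47 against 0.25 on array 2. The mean was 0.36 ± 0.154 (SD, n = 2 arrays), and KCS20 was not called (limma adjusted p = 0.0615), although its 95% interval, before any adjustment, ran from 0.08 to 0.64. KCS2 minus KCS20 came to -0.30 on array 1, against 0.45 on array 2. The order of the paralogs thus turned between arrays, and their responses could not be told apart. Whether either probe also binds the transcript of the other paralog, or the KCS5 probe that of CER6, was not tested, since probe sequences were not used here.

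KCS9 elongates acyl chains that enter wax, suberin and sphingolipids. Its log2 signals were 12.70 and 12.90 in sgr1, against 12.41 and 12.43 in wild type, and the genotypes did not overlap. With log2 ratios of 0.30 and 0.47, the mean was 0.38 ± 0.12 (SD, n = 2 arrays, 95% interval 0.10 to 0.66), and KCS9 was called higher at 1.3-fold (limma adjusted p = 0.0466). KCS9 lay just inside the threshold. It lost its call under 5 of the 9 alternative settings that had a test. Its mean log2 ratio was between 0.35 and 0.38, but several of these settings cannot change the mean of a gene with 1 probe.

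KCS3 has been reported to hold back the activity of CER6. It had log2 signals of 8.89 and 8.94 in sgr1, against 8.65 and 8.70 in wild type. The ratio was 0.24 on both arrays, with an SD of 0.0022, and both sgr1 signals lay above both wild-type signals. KCS3 was nevertheless not called (limma adjusted p = 0.241), with a 95% interval of the log2 ratio from -0.036 to 0.52. Limma moderates the SD of each gene toward 0.198, the value its model fitted over all genes, and so gives such close agreement of 2 arrays little weight. Wide disagreement gets little weight in the same way: KCS2, with an SD of 0.378, had a standard error of 0.144, beside 0.139 for KCS3.

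KCS4 and KCS12 were the members with negative ratios. KCS4, which has been linked to the channelling of fatty acids into polyunsaturated storage lipids, had log2 signals of 11.68 and 11.78 in sgr1, against 12.06 and 12.02 in wild type. Both sgr1 signals were below both wild-type signals. The log2 ratios of -0.38 and -0.25 averaged -0.31 ± 0.096 (SD, n = 2 arrays, 95% interval -0.59 to -0.034), which did not pass the threshold after adjustment (limma adjusted p = 0.112). KCS4 was the member counted above as lower at an unadjusted p under 0.05. KCS12 had log2 signals of 9.99 and 9.89 in sgr1, against 10.16 and 10.02 in wild type. Its sgr1 signals were also below those of wild type, with log2 ratios of -0.17 and -0.13 and a mean of -0.15 ± 0.030 (SD, n = 2 arrays, 95% interval -0.43 to 0.13, limma adjusted p = 0.527).

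KCS16 is known for elongation of the longest wax chains in leaf trichomes. Its log2 signals were 5.92 and 6.01 in sgr1, against 5.99 and 6.04 in wild type. None of these signals was well above background, so no level or ratio was assigned to KCS16 in either genotype.

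**Figure D2:**
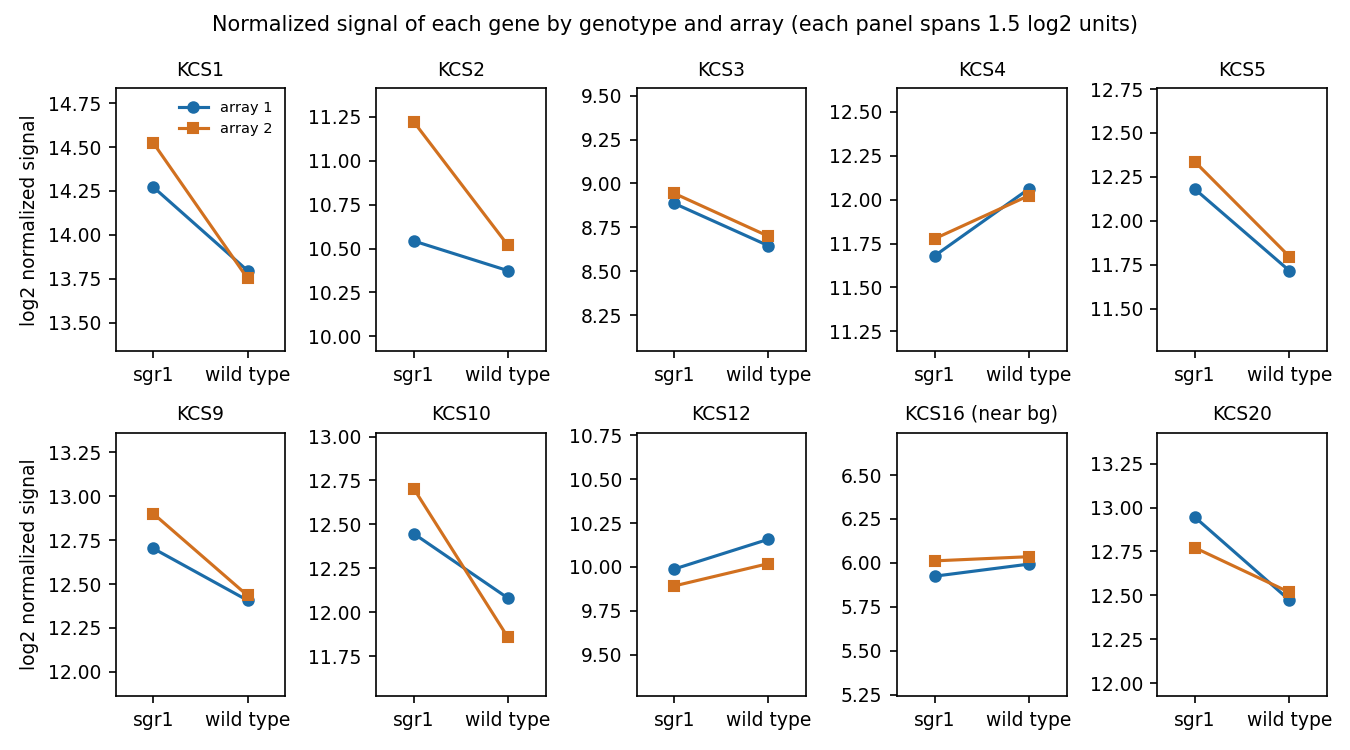
Log2 normalized signal (vertical axis, 1.5 log2 units in every panel) of each of the 10 KCS genes in sgr1 (left) and wild type (right), with a line joining the genotypes on array 1 (circles) and array 2 (squares). Lines fall to the right for 7 tested genes, as for KCS1 with 14.27 and 14.52 in sgr1 against 13.80 and 13.75 in wild type, and climb for KCS4 and KCS12; KCS16 (marked near bg) was not well above background.

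The genotypes did not overlap in any of the 9 tested members: both sgr1 signals lay above both wild-type signals in 7 and below them in 2. With 2 arrays this is a weak mark, since 59.3% of all genes tested showed it, 29.6% with sgr1 above and 29.7% with sgr1 below. Likewise the ratio had the same sign on both arrays in all 9 members, above 0 in 7 and below 0 in 2, beside 33.6% and 33.7% of all genes. The SD between arrays had a median of 0.121 over the members and 0.132 over all genes, and ran from 0.0022 for KCS3 to 0.378 for KCS2.

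The order of the members by ratio was only partly the same on the arrays. Of the 36 pairs of tested members, 27 had the same order on both, but only 3 of the 8 pairs of neighbours did. KCS1 minus KCS10 was 0.11 on array 1 and -0.076 on array 2, and the order also turned for KCS10 and KCS5, KCS5 and KCS2, KCS2 and KCS9, and KCS9 and KCS20. Members from the ends of the order were apart on both arrays: KCS1 minus KCS4 was 0.86 and 1.02, and KCS10 minus KCS4 was 0.75 and 1.09. The order was ranked by the mean of these same arrays, so a gap between its ends is no separate test. For the neighbours KCS3 and KCS12, KCS3 minus KCS12 was 0.41 and 0.37. Neighbours among the 5 called members were thus not resolved from each other.

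**Figure D3:**
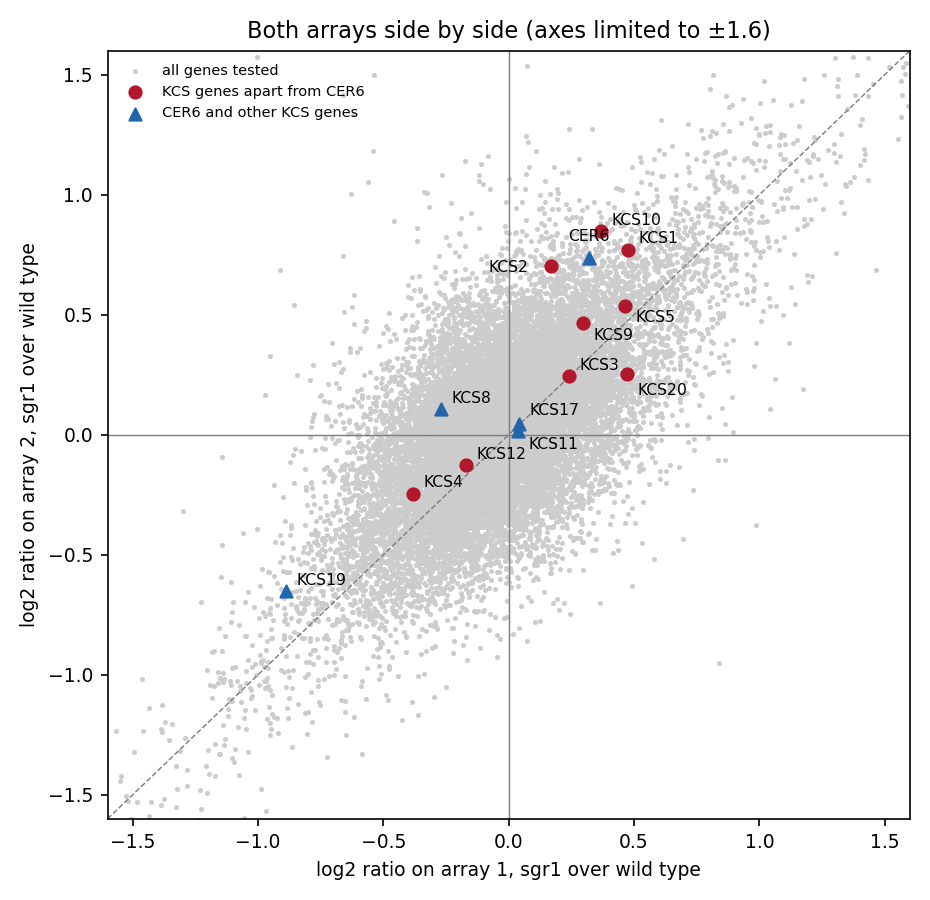
Log2 ratio of sgr1 over wild type on array 2 (vertical axis) against that on array 1 (horizontal axis) for all tested genes (grey), the KCS genes apart from CER6 (red circles) and the other tested KCS genes (blue triangles); the dashed line marks equal ratios. KCS2 (0.17 and 0.70) and KCS20 (0.47 and 0.25) lie on opposite sides of that line, and KCS4 and KCS12 are at the lower left.

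Among the other 11 KCS loci, 5 were tested, of which 1 was higher and 1 was lower, beside 9.94% and 8.99% of all genes tested. The median log2 ratio of the 5 was 0.028. CER6 had log2 signals of 14.93 and 15.21 in sgr1, against 14.61 and 14.48 in wild type, with log2 ratios of 0.32 and 0.74. It rose 1.44-fold (mean 0.53 ± 0.294, SD, n = 2 arrays, limma adjusted p = 0.00505), and without array 2 its log2 ratio is 0.32. CER6 minus KCS5, its closest relative, changed sign, at -0.14 on the first array and 0.20 on the dye-swapped one.

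KCS19 went the other way. Its log2 signals were 9.84 and 9.97 in sgr1, against 10.72 and 10.62 in wild type, a 1.7-fold fall with log2 ratios of -0.89 and -0.65 (mean -0.77 ± 0.167, SD, n = 2 arrays, limma adjusted p = 3.63e-05). KCS19 also passed the threshold with the scanner software's log ratios (limma adjusted p = 0.0202), where CER6 (0.0998) and the 9 tested genes above did not. KCS11, KCS17 and KCS8 were not called, with mean log2 ratios of 0.028, 0.043 and -0.082, and KCS8 stood out from background once in each genotype, in Cy5 both times. KCS7, KCS13, KCS14, KCS15, KCS18 and KCS21 were too dim to be tested; KCS18 is FAE1, the synthase of seed oil, and KCS13 is HIC, which acts in the stomatal response to CO2.

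Of the 4 genes for the other subunits of the elongase, 3 were called higher in sgr1, beside 9.94% of all genes tested. KCR1, the ketoacyl-CoA reductase, had log2 signals of 14.70 and 14.39 in sgr1, against 13.84 and 14.05 in wild type, and rose 1.51-fold (log2 ratio 0.59 ± 0.372, SD, n = 2 arrays, limma adjusted p = 0.0018). Its log2 ratio was 0.86 on array 1, and without that array only the 0.33 of array 2 is left. PAS2, the dehydratase, had log2 signals of 14.03 and 13.79 in sgr1, against 13.17 and 13.28 in wild type, and rose 1.6-fold (log2 ratio 0.68 ± 0.247, limma adjusted p = 0.000269). CER10, the enoyl-CoA reductase, rose 1.36-fold (log2 ratio 0.44 ± 0.017, limma adjusted p = 0.0192). KCR2, another reductase gene, was not called (log2 ratio 0.19, limma adjusted p = 0.384). The median log2 ratio of the 4 was 0.52, but limma called 0 of them from the ratios of the scanner software, where 3 had an unadjusted p under 0.05 and PAS2 came closest (limma adjusted p = 0.0534).

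The CER2 family consists of proteins that assist the elongase in making the longest chains. CER2 rose 1.8-fold (log2 ratio 0.85 ± 0.092, SD, n = 2 arrays, limma adjusted p = 5.41e-06) and CER26-LIKE rose 1.47-fold (log2 ratio 0.56 ± 0.0011, limma adjusted p = 0.00244). CER26, at -0.27, was not called (limma adjusted p = 0.194). The ELO-like genes, relatives of the yeast and animal elongases that condense chains by an unrelated enzyme, gave 0 calls among 3 tested. Of all genes tested, 18.9% were called. The median log2 ratio of the 3 was 0.0051, and 1 of them, ELO4, had an unadjusted p under 0.05 (log2 ratio 0.29, limma adjusted p = 0.144).

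Genes that supply the synthases with substrate were called higher in 4 of 6 cases, beside 9.94% of all genes tested, with a median log2 ratio of 0.49. ACC1, the acetyl-CoA carboxylase that makes malonyl-CoA in the cytosol, had a log2 ratio of 0.66 ± 0.081 (SD, n = 2 arrays, limma adjusted p = 0.000324). LACS1 and LACS2, acyl-CoA synthetases of the cuticle, had log2 ratios of 0.58 ± 0.0954 (limma adjusted p = 0.00158) and 0.58 ± 0.111 (limma adjusted p = 0.00175). FATB, the thioesterase that releases saturated fatty acids from the plastid, was called at 0.40 ± 0.333 (limma adjusted p = 0.042), with 0.63 on array 1 and 0.16 on array 2, so that only 0.16 is left without array 1. Its call also failed with a smaller normexp offset and with no filter on dim probes. LACS4 (-0.072) and LACS9 (-0.22) were not called. With the scanner software's log ratios ACC1 was the only one of the 6 called.

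Enzymes that turn the long chains into wax had the highest median of the lists, 0.81, and 5 of the 6 were called higher, beside 9.94% of all genes tested. CER1 and CER3 act in alkane formation, CER4 makes primary alcohols and WSD1 makes wax esters. CER1 rose 2.2-fold (log2 ratio 1.14 ± 0.383, SD, n = 2 arrays, limma adjusted p = 1.73e-08) and CER4 rose 2.09-fold (log2 ratio 1.06 ± 0.0598, limma adjusted p = 4.01e-08). WSD1 had a log2 ratio of 0.82 ± 0.159 (limma adjusted p = 1.11e-05) and CER3 of 0.81 ± 0.442 (limma adjusted p = 3.33e-05), with 0.49 left for CER3 without array 2. All 5 calls in this list were also made from the ratios of the scanner software.

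The other destinations of very-long-chain acyl groups gave fewer calls, to be read beside 18.9% of all genes tested called in either direction. Of 10 suberin genes, 5 were too dim to be tested and 0 of the other 5 were called by limma; ABCG20, a transporter of suberin precursors, alone had an unadjusted p under 0.05, with a log2 ratio of -0.34 and an adjusted p of 0.0819. Between 0 and 2 suberin genes were called lower, and none higher, under the 9 alternative settings. The 5 tested were dim as well, with log2 signals from 6.14 for FAR5 to 7.83 for ASFT, and FAR5 was well above background on neither array in sgr1. Their calls are thus not on a par with those of the brighter wax enzymes. Of 3 ceramide synthases, which place long chains into sphingolipids, LOH3 rose 1.67-fold (log2 ratio 0.74 ± 0.0551, SD, n = 2 arrays, limma adjusted p = 6.32e-05) and LOH1 and LOH2 were not called.

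Of 6 transcription factors of wax and cuticle genes, 5 were tested. DEWAX, a repressor of wax genes, had log2 signals of 10.03 and 9.71 in sgr1, against 11.38 and 11.36 in wild type, and fell 2.83-fold (log2 ratio -1.50 ± 0.22, SD, n = 2 arrays, limma adjusted p = 2.96e-12). WIN1, an activator of cuticle formation, was well above background in sgr1 but on neither array in wild type. Its signal in sgr1 was at least 1.57-fold higher. The bound sets its mean sgr1 signal against the lowest wild-type signal well above background on each array, or its own where that was higher. WIN1 passed the probe filter only through sgr1, so its p-value (limma adjusted p = 1.58e-05) gives no support of its own. With both channels required to be above background, WIN1 was not tested. MYB30 (-0.042), MYB94 (0.11) and MYB96 (-0.16) were not called. Over these lists without the KCS genes, 16 of 35 tested genes were higher, WIN1 among them, and 1 was lower, with a median log2 ratio of 0.19. Of all genes tested, 9.94% were called higher and 8.99% lower.

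**Figure D4:**
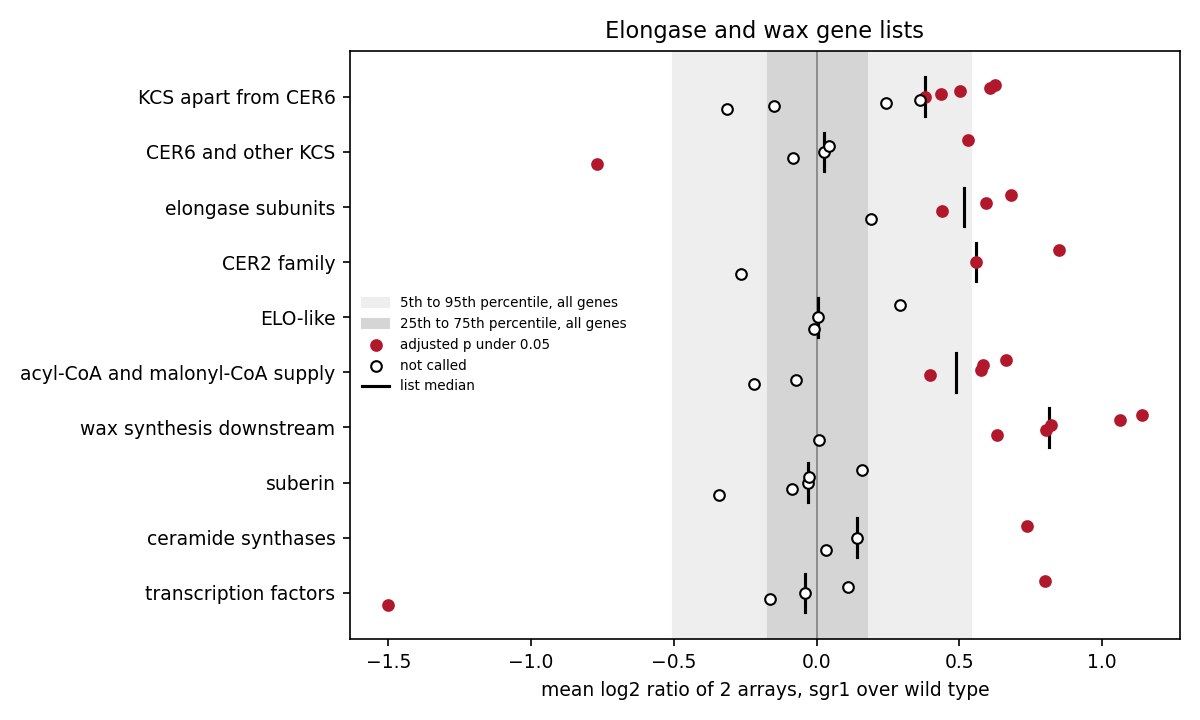
Mean log2 ratio of 2 arrays, sgr1 over wild type (horizontal axis), for every tested gene of the KCS family and of each elongase or wax list (rows); filled points have an adjusted p under 0.05, black lines are list medians, and the grey bands span the 25th to 75th percentile (-0.17 to 0.18) and the 5th to 95th percentile (-0.50 to 0.54) of all genes. The KCS genes apart from CER6 have a median of 0.38, the downstream wax enzymes of 0.81 and the suberin genes of -0.031.

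Markers of several tissues differed between the genotypes beside the KCS genes. All 4 genes listed as endodermis markers, SCR, SHR, SGR5 and EN7, were called lower in sgr1. Beside these and the marker counts below stand 8.99% of all genes tested called lower and 9.94% called higher. The summed linear signal of the 4 was 8548 and 7650 in sgr1, against 12904 and 13410 in wild type. SCR is itself the gene with the lesion. The brightest probe of the 4 was that of SHR, with log2 signals of 11.84 and 11.75 in sgr1, against 12.31 and 12.35 in wild type. Of 6 epidermis markers, the wax and cutin exporters ABCG11 (log2 ratio 0.93) and ABCG12 (0.70) were higher, PDF1 was lower (-0.69), and ATML1 (-0.027), PDF2 (0.15) and LTP1 (0.24) were not called. Summed epidermal signal was 108546 and 124889 in sgr1, against 108450 and 85378 in wild type, most of it from LTP1, whose ratio was -0.08 on array 1 and 0.57 on array 2. Without LTP1 the sums were 20742 and 22130 in sgr1, against 15518 and 15952 in wild type. The brightest probe left was that of ABCG11, with log2 signals of 13.30 and 13.56 in sgr1, against 12.48 and 12.53 in wild type. That higher sum thus follows the exporters ABCG11 and ABCG12, while PDF1, ATML1 and PDF2 showed no rise that was called. Sums weigh bright probes most and give no amount of a tissue. Floral organ markers summed to 394 and 463 in sgr1, against 370 and 393 in wild type. AP1 was higher (0.61, limma adjusted p = 0.000965) but dim, with log2 signals of 6.34 and 6.57 in wild type. SEP3 was not called (-0.037, limma adjusted p = 0.904). PI was too dim to be tested, and AP3 and AG were at background in every channel. Phloem markers summed to 5238 and 6182 in sgr1, against 4411 and 4742 in wild type; limma called 0 of the 2, SUC2 having an unadjusted p under 0.05. Signals summed over xylem and fibre markers were 6068 and 6532 in sgr1, against 4853 and 5772 in wild type, with 1 of 3 higher (IRX3, log2 ratio 0.40). The part of tissue makeup in the KCS ratios was not tested.

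The members' mean ratios kept their sign under all 9 alternative settings that had a test, but several of these could not change them. Each member had 1 probe, so the probe filter, the choice of probe and the variance model left its mean as it was. Under median centring the ratio of KCS1 was -0.68 on array 1 and 1.88 on array 2. A dye effect equal on both arrays would cancel in the mean of the swapped arrays, but its part here was not tested. KCS1 ranged from 0.60 to 0.62, KCS5 from 0.498 to 0.502, KCS10 from 0.58 to 0.61 and KCS4 from -0.32 to -0.31. Calls varied more than values: KCS1, KCS5 and KCS10 were called under 7 of the 9 settings, KCS2 under 6, KCS9 under 4, and KCS20, KCS3, KCS12 and KCS4 under none. The lowest adjusted p of KCS20 under any of them was 0.0587. The scanner software's ratios differed little in size, with 0.61 for KCS1 (limma adjusted p = 0.0578), 0.50 for KCS5 (0.0844) and 0.58 for KCS10 (0.0921).

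**Figure D5:**
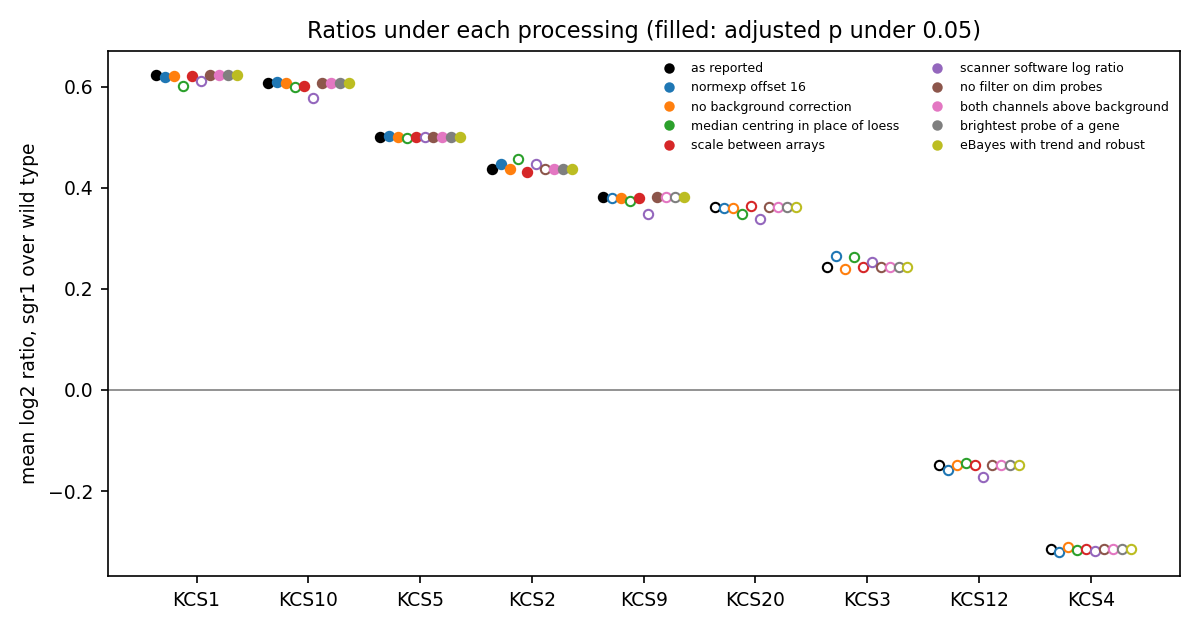
Mean log2 ratio, sgr1 over wild type (vertical axis), of each tested KCS gene apart from CER6 (horizontal axis), as reported (black) and under 9 other processing settings (colours); filled points have an adjusted p under 0.05. Points of 1 gene lie close together, as for KCS1 between 0.60 and 0.62, while filling changes between settings. Settings of the probe filter, the choice of probe and the variance model cannot move the mean of a gene with 1 probe.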

How the data were processed

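The deposited scanner files hold, per spot and channel, the mean intensity and the median intensity of the local background, written by Agilent Feature Extraction 9.1.3.1 per the file headers. They also hold the software's log10 ratio of Cy5 over Cy3, deposited after its own dye normalization; the deposited value table holds the same log10 ratio. No source used here names the build the probes were designed on.

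Background was removed with normexp at offset 50, and dyes were balanced by loess within each array in limma 3.58.1 (R 4.3.3), control and outlier spots having weight 0, and log2 ratios were turned to sgr1 over wild type. Of 37685 spots other than controls, 11251 named no locus. Probes needed 1 or more channels well above background on both arrays, and kept probes of a locus were averaged. Genotype signals were scaled between arrays by Aquantile, which leaves ratios as they are. The 19059 loci kept were tested together with lmFit and eBayes on 2 arrays (Benjamini-Hochberg, adjusted p under 0.05), and printed intervals cover 95% without adjustment. The model was tested on simulated data, where it called 25 of 67 genes changed 1.5-fold and all 67 changed 2-fold. The simulation had its own noise and fewer changed genes than were called here, so these shares do not carry over to the members.

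The series' design names 2 biological replicates, but the sample descriptions give replicate 1 of 1, so the spread between these arrays may be technical. The p-values measure no other spread. They rest mostly on its value pooled over all genes (prior of 48.26 degrees of freedom), and little on that of each gene. The number of arrays limits the precision.

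The KCS genes and all 15 gene lists were chosen with earlier results of these data known. Named are all 10 KCS genes, CER6 and the other KCS genes, the elongase subunits, SCR, and in each other list up to 4 called genes with the largest change; genes that were not called, and all markers, were chosen for naming after their values were seen. Names of all 83 list genes were matched to RefSeq. Promoter motifs and protein identities were not analysed here. The 9 alternatives with a test changed the offset, the background correction, loess, scaling between arrays, the starting ratios, the probe filter, the choice of probe and the variance model.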

Additional observations from a re-analysis of the deposited data

How the results depend on the processing

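Each choice was changed alone, except that the scanner software's log ratios replace the background correction and the dye correction together. Limma called 3607 of all genes as reported, 1952 with the scanner software's log ratios and 2 with median centring in place of loess. For the 9 tested members, KCS1 to KCS5, KCS9, KCS10, KCS12 and KCS20, the counts were 5, 0 and 0. At an unadjusted p under 0.05 there were 4 with the software's ratios and 0 with median centring, beside 5156 and 90 of all genes. The elongase and wax lists without KCS genes had 17 calls as reported, 12 with the software's ratios and, with median centring, 0 at either an adjusted or an unadjusted p under 0.05. Under median centring the arrays' ratios had a correlation of -0.19 across genes, beside 0.72 as reported, and limma's prior SD was 1.2, beside 0.198; KCS1 was at -0.68 on array 1 and 1.88 on array 2. With the software's ratios the smallest called change was 0.605, and limma's prior had 5.41 degrees of freedom, beside 48.26 as reported. The cause of the fewer calls was not tested. The other 7 settings called 4 or 5 members. None of the 9 tested members and no called gene of the lists changed sign under a setting or, as normalized here, without 1 array; LTP1, ATML1 and KCS8, among others not called, differed in sign between arrays. With 1 array left out, or both taken as 1 replicate, there is a value and no test. No paired analysis was possible because the ratio on each array already pairs sgr1 with wild type, which leaves no replicate number to use as a further block.

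With 2 arrays, the interval on a log2 ratio reached a median of 0.28 to either side. The smallest change called was 0.37 as reported and 0.269 with eBayes in its trend and robust form, which did not call KCS3, KCS4 or KCS20 either. KCS16 was not well above background in any channel, and no level was assigned to it. Both arrays lay on 1 slide, and the genotypes were compared within it.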
